A study of Homo sapiens with 8 samples.

Results

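H3K27ac, the acetylated form of histone H3 found at active enhancers and promoters, was examined at intergenic regions that lie 100 kb or more from any protein-coding transcript start. Peaks of 6 libraries from A549 cells, a human lung adenocarcinoma line, were merged wherever they overlapped, which gave 49186 regions. Regions were kept when they were shorter than 10 kb, were called in 3 or more libraries with both groups present, overlapped no annotated gene of any kind and met the distance limit. A total of 2156 regions remained, and are called remote enhancers here by their position and mark only, because enhancer activity was not measured. They were drawn from 29165 regions that met the same length and calling limits at any position.

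All cells were A549, which carries a KEAP1 mutation, and all were harvested for chromatin immunoprecipitation 48 hours after siRNA transfection. Control siRNA had been given to 3 libraries and NRF2 siRNA to 3. Replicate 1 of the latter received siRNA 28, while siRNA 30 was used for its replicates 2 and 3. The study describes the replicates as biological, from independent experiments. No peak list of the 2 input samples was used here. The series asks how far NRF2 shapes H3K27ac across the genome of this line.

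NRF2 is a transcription factor that activates detoxification, antioxidant and metabolic genes and is normally held low by KEAP1. It binds DNA together with a small MAF protein at antioxidant response elements, whose core is spelled TGACNNNGC, and it recruits histone acetyltransferases. Remote enhancers reach their promoters by folding of the chromatin, so the nearest coding start need not be the gene they act on. Intervals around genes of development and cell adhesion are often long and rich in such elements.

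The members were chosen by where peaks were called, so the counts of calls per library describe the rule. The peak lists held 23885 to 41571 peaks, with the shortest list of each group in replicate 1. By the read totals in the study's supplement, which are not repeated here, the replicate 1 libraries were also sequenced less deeply than those of replicates 2 and 3. Their part in the results below was not tested. A flow cell is named in the peaks of replicates 2 and 3 and not in those of replicate 1, so for replicate 1 a different sequencing run, the lower depth and siRNA 28 cannot be told apart. Starts of the epithelial genes KRT8, KRT18, EPCAM and CDH1 lay between percentiles 85.0 and 98.1 of every list. Of 13 lung and A549 marker genes, 8 had a start called in 5 or 6 libraries, and the alveolar markers NKX2-1, SFTPB, SFTPC, SFTPA1 and NAPSA were called in 0. Of 9 genes of other cell types, 7 were called in 0 libraries, 1 of them (PECAM1) because the annotation used gave it no coding start, and COL1A1 and ALB were called in 2. The knockdown itself could not be checked in the peak lists, since an siRNA acts on the NRF2 transcript and not on the acetylation of its gene. By immunoblot, the study reports less NRF2 protein after NRF2 siRNA in its NRF2-activated lines, A549 among them.

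The sequences below show, for the 8 named regions that fell and then for those that rose, the response element core nearest the middle of the region, because fallen members held this word more often than the others. Each is 49 bases of GRCh37 read 5′ to 3′ on the strand given, with the core in capitals. The core has the form TGACTCAGC in 4 of the 8 fallen regions, which also contains the AP-1 motif TGANTCA. Regions are named by the coding genes on either side.
OSR1-TTC32 (fell, chr2:19986615-19986663, plus strand): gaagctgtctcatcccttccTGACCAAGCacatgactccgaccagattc
STXBP6-NOVA1 (fell, chr14:26750977-26751025, plus strand): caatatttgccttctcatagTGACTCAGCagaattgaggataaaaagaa
STIM2-PCDH7 (fell, chr4:28178855-28178903, minus strand): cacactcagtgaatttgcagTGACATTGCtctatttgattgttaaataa
SRD5A2-MEMO1 (fell, chr2:32037243-32037291, plus strand): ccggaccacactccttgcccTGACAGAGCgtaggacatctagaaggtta
ONECUT1-WDR72 (fell, chr15:53600604-53600652, minus strand): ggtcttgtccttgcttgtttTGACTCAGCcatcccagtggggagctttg
TCF4-TXNL1 (fell, chr18:54041428-54041476, plus strand): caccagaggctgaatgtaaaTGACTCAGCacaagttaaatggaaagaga
NPY-PALS2 (fell, chr7:24495856-24495904, plus strand): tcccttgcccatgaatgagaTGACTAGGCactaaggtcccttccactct
RAPGEF2-FSTL5 (fell, chr4:160948067-160948115, minus strand): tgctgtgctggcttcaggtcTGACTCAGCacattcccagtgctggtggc

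Among the 8 named regions that rose, 7 held a core and NDFIP2-SPRY2 held none. The word TGACTCAGC was the core nearest the middle in 1 of the 7, LCLAT1-CAPN13.
Beyond B3GAT1 (rose, chr11:134794130-134794178, minus strand): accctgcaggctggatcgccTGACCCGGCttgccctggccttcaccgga
ALX1-RASSF9 (rose, chr12:86019833-86019881, plus strand): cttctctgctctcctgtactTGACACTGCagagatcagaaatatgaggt
TLCD4-RWDD3-PTBP2 (rose, chr1:96986788-96986836, plus strand): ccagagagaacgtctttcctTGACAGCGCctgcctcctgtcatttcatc
ELAC2-HS3ST3A1 (rose, chr17:13250837-13250885, minus strand): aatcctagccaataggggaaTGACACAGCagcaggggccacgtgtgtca
LCLAT1-CAPN13 (rose, chr2:30888005-30888053, minus strand): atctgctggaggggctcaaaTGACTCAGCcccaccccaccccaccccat
SLC16A7-TAFA2 (rose, chr12:60322407-60322455, plus strand): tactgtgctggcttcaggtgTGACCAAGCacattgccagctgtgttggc
TOX3-CHD9NB (rose, chr16:52847203-52847251, minus strand): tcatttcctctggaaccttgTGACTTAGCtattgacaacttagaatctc

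The remote enhancers lay a median of 242780 bp from the nearest coding start, and 118 lay 1 Mb or more away. Their median length was 2647 bp, and together they covered 6.93 Mb. The library with most of them was NRF2 siRNA replicate 3, which called 2121 (98.4%), and the one with fewest was NRF2 siRNA replicate 1, which called 1109 (51.4%). The control libraries called 1235, 1889 and 2075. All 6 libraries called 847 members, 5 called 414, 4 called 551 and 3 called 344.

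Compared with other positions, remote enhancers were low in GC content. Median GC was 39.5%, against 44.5% in intergenic regions nearer to a start, 42.7% in regions within genes and 56.0% over coding starts. Members called in all 6 libraries were 39.3% of the whole, against 41.9% of nearer intergenic regions and 69.2% of regions over coding starts. Since the lists were called one by one, the strength of a region was read as its percentile, the share of a library's own peaks whose fold enrichment over background was no higher. Over the libraries that called them, members had a median percentile of 41.9, 42.8 and 47.3 in the control lists and 45.2, 48.2 and 50.3 in the NRF2 siRNA lists. The members behind these medians differ between libraries. In the 847 called in all 6 libraries, the control medians were 53.6, 67.9 and 68.8. Those with NRF2 siRNA were 52.2, 71.2 and 74.9, so replicate 1 was lower there than its control. Some members were among the strongest peaks of a list: 4 to 13 members per library stood at percentile 99 or above, and 82 to 163 at percentile 90 or above.

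Control siRNA and NRF2 siRNA libraries were then compared by rank. Each of 32673 regions called in 3 or more libraries was ranked in each library by fold enrichment, ranks were turned into normal scores, and scores were compared with limma (Benjamini-Hochberg adjusted p under 0.05 over all 32673). A score unit is 1 standard deviation of that normal scale, and a change is NRF2 siRNA minus control.

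With all 6 libraries, more remote enhancers rose than fell. A total of 47 members (2.18%) had a lower score with NRF2 siRNA and 72 (3.34%) a higher one. All 119 moved the same way in the 3 replicate pairs, which describes the calls, since the same libraries made them. Over all regions tested the shares called were 3.39% lower and 2.01% higher, and over the 29165 regions under the same limits on length and calling they were 2.20% and 1.79%. The lower share among remote enhancers was thus near that of the latter set and below that of all regions tested. The higher share was above both. No test of these differences was made, since the members share libraries and were chosen with results known.

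The counts depended on the treatment of the lists and on the libraries used. With all lists cut to the length of the shortest, 1188 members remained, of which 31 fell and 76 rose, and the rises were 71.0% of the calls, against 60.5% with whole lists. The share of all regions called with cut lists is not given here, so these counts describe the members only. With the replicate number as a block, 76 members fell and 170 rose (3.53% and 7.88%), while 6.62% of all regions were lower and 5.72% higher. The lower share was below that of all regions tested and the higher share above it, as without the block. The shares over regions under the same limits on length and calling are not given for this fit. Among the 847 members called in all 6 libraries, ranked anew without ties, 18 fell and 38 rose (2.13% and 4.49%), where 2.19% and 2.02% of all regions called in 6 were lower and higher. In that set the lower and higher shares were 3.11% and 3.30% in nearer intergenic regions and 2.76% and 3.70% in genes. Over coding starts they were 1.53% and 0.344%. Leaving out control siRNA replicate 2 gave 0 calls in limma in either direction. Before adjustment, the limma p fell below 0.05 for 438 members in that fit and for 537 in the fit of all 6 libraries. How many of all regions tested did so is not given, so these numbers cannot show whether a signal remained. Without control siRNA replicate 3 there were 8 falls and 1 rise, and without NRF2 siRNA replicate 2 there were 8 and 2, so that falls outnumbered rises in both. Without control siRNA replicate 1 the counts were 30 and 47, without NRF2 siRNA replicate 3 they were 21 and 23, and without NRF2 siRNA replicate 1 they were higher, at 58 and 104. No share over all regions is given for these fits, so the counts describe the members only. None of the 119 changed direction in any of them. These regions were called in the same libraries, so this is a description of the calls and not a separate support.

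The median change over all members was 0.193 score units, with 1395 members (64.7%) above 0, and it was 0.251, 0.125 and 0.220 in pairs 1, 2 and 3. Over all regions tested it was 0.0164. The pair 1 value is set by ties: a region that neither library of pair 1 called takes a change of 0.251 because the lists differ in length, and 710 members were of this kind. Among members called in all 6 libraries, where no ties arise, the median was 0.174, and 0.171, 0.0958 and 0.246 in the 3 pairs. The same medians were 0.0916 in intergenic regions nearer to a start, 0.0987 in regions within genes and -0.0947 over coding starts.

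**Figure D1:**
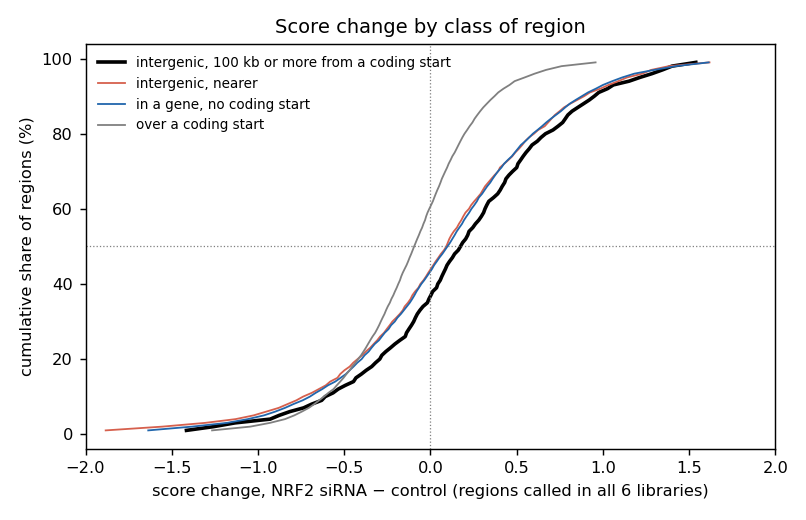
Cumulative share of regions (percent, y axis) against score change, NRF2 siRNA minus control (x axis), for regions called in all 6 libraries in 4 classes of position. The curve of remote regions (n = 847) crosses 50% at 0.174, right of the other intergenic regions and of regions in genes, and regions over coding starts cross it at -0.0947.

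Over all intergenic regions the median change was larger in each farther bin of distance up to 1 Mb. It was 0.0275 at under 10 kb, 0.0742 at 10 to 50 kb and 0.114 at 50 to 100 kb. Among members it was 0.150 at 100 to 200 kb, 0.186 at 200 to 300 kb, 0.240 at 300 to 500 kb and 0.247 at 500 to 1000 kb. The 118 members at 1000 kb or more did not continue this order, with a median of 0.0864. Regions called in all 6 libraries, which hold no ties, had medians of 0.0547, 0.107, 0.0822, 0.102, 0.189, 0.223 and 0.268 in the same 7 bins, and 0.00425 at 1000 kb or more. In this set the medians showed no steady order between 10 and 200 kb and were higher from 200 to 1000 kb. Median GC content moved with distance, from 46.4% at under 10 kb to 35.9% at 1000 kb or more. Within windows of GC content, set after the values had been seen, remote enhancers had a median change of 0.240 at under 36% GC and 0.191 at 44 to 48% GC, where nearer intergenic regions had 0.215 and 0.0357. The part of base composition in the change was not tested beyond these windows.

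**Figure D2:**
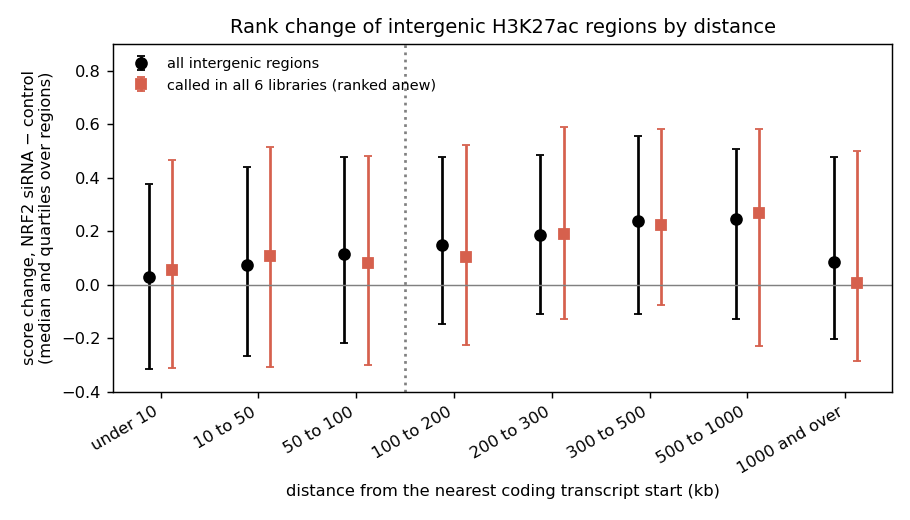
Median score change, NRF2 siRNA minus control, with lower and upper quartiles over regions (y axis) in 8 bins of distance from the nearest coding transcript start in kb (x axis). Circles are all intergenic regions and squares those called in all 6 libraries, and the dotted line marks 100 kb. Medians go from 0.0275 in the first bin to 0.247 at 500 to 1000 kb, and the quartiles of neighbouring bins overlap.

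On every one of the 20 chromosomes with at least 20 members, the median change of remote enhancers was above that of the other regions of the same chromosome. Those other regions are of all classes and include 9252 over coding starts, whose median change was -0.0609. The values also include the ties of uncalled regions. Nearer intergenic regions were not compared by chromosome. Chromosome 12 had the densest set, 1.13 members per Mb. The median change was 0.351 over the 68 members of chromosome 11, with 1 fall and 7 rises, where other regions had 0.0693. It was 0.0204 over the 107 members of chromosome 7, with 4 falls and 2 rises, where other regions had 0.000238. Shares of calls over all regions of these chromosomes are not given, so the counts describe the members only.

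Falls were larger than rises. The 47 falls ranged from -0.884 to -2.66 with a median of -1.32, and the 72 rises from 0.848 to 2.17 with a median of 1.17. The fallen regions were strong in the controls, at median percentiles of 64.3, 77.5 and 81.9, and all 3 control libraries called all 47. NRF2 siRNA replicates 1, 2 and 3 called 11, 35 and 44 of them. The risen regions had median percentiles of 46.7, 64.8 and 62.9 in NRF2 siRNA libraries, and control libraries called 28, 58 and 68 of the 72. These levels follow from the calls and are given as a description. The largest falls and rises named below were picked from the calls by the size of their change. Several were called in few libraries of their low group, and an uncalled library enters as the tied lowest rank. Their change, p and separation between groups thus follow in part from that choice and those ranks, and are not a separate support.

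The region with the deepest fall lay between OSR1, a zinc finger transcription factor of organ development, and TTC32, at chr2:19985130-19987696 and 113706 bp from the start of TTC32. It stood at percentiles 92.8, 90.1 and 91.9 of the control lists. Among NRF2 siRNA libraries it was called in replicate 2 alone, at percentile 8.25. The libraries that did not call it took the tied lowest rank, and its score changed by -2.66 (SE 0.310, limma adjusted p = 0.00677). It stood apart from its surroundings: the 8 other members of the interval had changes of -0.214 to 0.657, with a median of 0.395.

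The region between STXBP6, a regulator of vesicle fusion, and NOVA1, a neuronal splicing factor, was called in all 6 libraries. It lay at chr14:26749441-26752499, 312206 bp from the start of NOVA1. It stood at 94.2, 96.3 and 96.1 in controls and at 10.3, 12.2 and 30.2 with NRF2 siRNA. Group means were 95.5 ± 1.16 and 17.6 ± 11.0 (SD, n = 3 per group). All control values lay above all NRF2 siRNA values, by more than the spread of either group. The score changed by -2.31 (SE 0.247, limma adjusted p = 0.00628), while the 2 other members of the interval were at -0.0973 and -0.000493.

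A region more than 1 Mb from any coding start fell as well. It lay at chr4:28176805-28181089 in the interval of 3.69 Mb between STIM2, a calcium sensor of the endoplasmic reticulum, and PCDH7, a protocadherin. Control percentiles were 75.2, 85.4 and 87.8, and NRF2 siRNA replicate 3 alone called it among the treated libraries, at 11.6. Its score changed by -2.24 (SE 0.244, limma adjusted p = 0.00628). The region held 4 cores.

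The region between SRD5A2, a steroid reductase, and MEMO1 (chr2:32036097-32039772) stood at percentiles 86.7, 80.3 and 70.2 in control libraries and at 3.05 in NRF2 siRNA replicate 2, the one treated library that called it. The change was -2.14 (SE 0.345, limma adjusted p = 0.0134). Between ONECUT1, a transcription factor of liver and pancreas, and WDR72, whose start was the nearer, a region (chr15:53599261-53601611) stood at 78.1, 88.7 and 87.0 in controls. NRF2 siRNA replicates 2 and 3 called it at 3.87 and 15.2, and it changed by -2.11 (SE 0.209, limma adjusted p = 0.00628). In both regions the lowest control percentile was far above the highest treated one.

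Between TCF4, a transcription factor of the basic helix-loop-helix family, and TXNL1, a thioredoxin-like protein, a region (chr18:54039827-54042724) stood at 74.4, 75.1 and 83.0 in controls. NRF2 siRNA replicate 3 called it at 11.6, and the change was -2.03 (SE 0.242, limma adjusted p = 0.00677). The region between NPY, a neuropeptide gene, and PALS2, a scaffold protein of cell polarity, lay at chr7:24495274-24498927. It stood at 64.3, 83.2 and 83.8 in controls and at 1.65 and 11.6 in NRF2 siRNA replicates 2 and 3 (change -1.91, SE 0.223, limma adjusted p = 0.00677). Its neighbour, the only other member of that interval, had a change of -1.06.

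The interval of 2.02 Mb between RAPGEF2, an activator of Rap GTPases, and FSTL5 held 8 members. One of them (chr4:160947056-160949508) held 5 cores and stood at 53.5, 79.0 and 74.7 in controls and at 6.32 in NRF2 siRNA replicate 3, the one treated library to call it. It changed by -1.85 (SE 0.262, limma adjusted p = 0.00988). A second member changed by -1.66, while another (chr4:161237280-161244894) was among the strongest peaks of every list, at percentiles 99.7, 99.9 and 99.9 in controls and 99.1, 99.8 and 99.8 with NRF2 siRNA. The score of that strong region changed by -0.275 (limma adjusted p = 0.491), and changes of the interval's members reached 0.883 at the upper end.

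**Figure D3:**
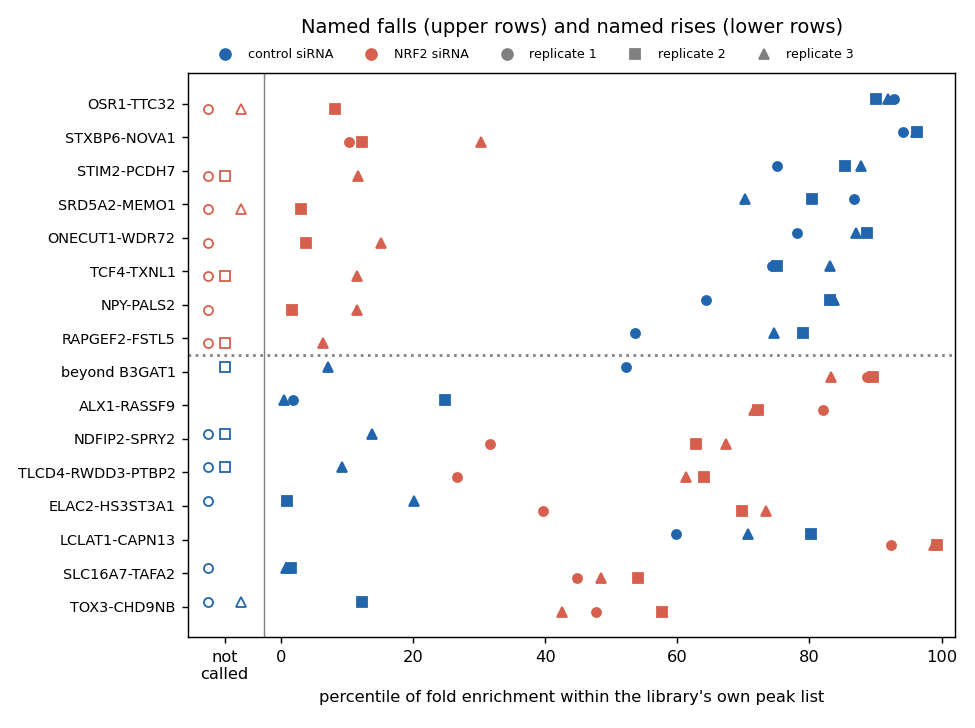
Percentile of fold enrichment within each library's own peak list (x axis) for the 16 named regions that fell (upper rows) or rose (lower rows), blue for control siRNA and red for NRF2 siRNA, with circles, squares and triangles for replicates 1, 2 and 3. Open symbols at the left are libraries that did not call the region. In all 8 falls the control values lie right of all treated values, and STXBP6-NOVA1 (95.5 against 17.6 on average) is the fall called in all 6 libraries.

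Rises began from low or uncalled regions in most cases. Members on chromosome 8 were counted but are not named, and 3 of their rises were larger than the smallest named here, while 0 of their falls were larger than the smallest named fall. Beyond B3GAT1, the last coding gene of the long arm of chromosome 11 and the enzyme that makes the CD57 sugar epitope, a region at chr11:134793800-134796605 stood at 52.3 and 7.19 in control replicates 1 and 3 and was not called in replicate 2. NRF2 siRNA libraries had it at 88.7, 89.6 and 83.2, and the score changed by 2.17 (SE 0.484, limma adjusted p = 0.0368). Control replicate 1 stood far above the other controls.

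Between ALX1, a homeobox factor of craniofacial development, and RASSF9, a region at chr12:86019327-86021681 was called in all 6 libraries. It stood at 1.91, 24.8 and 0.517 in controls and at 82.1, 72.1 and 71.5 with NRF2 siRNA, with means of 9.08 ± 13.6 and 75.3 ± 5.90 (SD, n = 3 per group). No control value reached a treated one, and the change was 1.74 (SE 0.364, limma adjusted p = 0.0306). The 5 other members of its interval had a median change of -0.155.

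The region between LCLAT1, a lysocardiolipin acyltransferase, and CAPN13, a calpain (chr2:30886541-30891709), was already strong in controls, at 59.8, 80.3 and 70.7. It reached 92.3, 99.4 and 98.9 with NRF2 siRNA, with means of 70.3 ± 10.2 and 96.8 ± 3.97 (SD, n = 3 per group), above all control values, and changed by 1.55 (SE 0.269, limma adjusted p = 0.0169). Of the named rises it ended highest.

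The remaining named rises were not called in 1 or 2 control libraries. ELAC2-HS3ST3A1 (chr17:13249752-13251853), beside a heparan sulfate sulfotransferase gene, went from 0.993 and 20.2 in control replicates 2 and 3 to 39.6, 69.8 and 73.5. NDFIP2-SPRY2 (chr13:80205111-80206489), between an adaptor of ubiquitin ligases and an inhibitor of growth factor signalling, was called in control replicate 3 alone at 13.8 and then at 31.6, 62.9 and 67.4. TLCD4-RWDD3-PTBP2 (chr1:96985560-96988748), beside the neuronal splicing factor PTBP2, was at 9.19 in control replicate 3 alone and at 26.7, 64.1 and 61.3 with NRF2 siRNA. In each of the 3 the treated libraries of siRNA 30 stood above that of siRNA 28, and all treated values lay above all control values. SLC16A7-TAFA2 (chr12:60321020-60323866), beside a monocarboxylate transporter gene, went from 1.60 and 0.813 in control replicates 2 and 3 to 44.9, 54.1 and 48.4. TOX3-CHD9NB (chr16:52846504-52848421) went from 12.3 in control replicate 2 to 47.6, 57.7 and 42.5. The changes of the 5 regions lay between 1.46 and 1.65, with limma adjusted p from 0.00692 (ELAC2-HS3ST3A1) to 0.0466 (TOX3-CHD9NB).

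Without control siRNA replicate 2 none of the 16 named regions passed the threshold (limma adjusted p from 0.0504 to 0.120). The change of OSR1-TTC32 was then -2.71, against -2.66 with all libraries. For 7 of them, OSR1-TTC32, STXBP6-NOVA1, STIM2-PCDH7, ONECUT1-WDR72, TCF4-TXNL1, NPY-PALS2 and ELAC2-HS3ST3A1, that was the only setting tried in which the region was tested and its call was lost. The other 9 also fell short without control siRNA replicate 3 (limma adjusted p up to 0.143) and without NRF2 siRNA replicate 2 (up to 0.160).

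Of the 10 strongest remote enhancers of the control lists, 1 passed the test. At the top stood a region in the interval of 2.00 Mb between CHORDC1, a chaperone partner, and FAT3, an atypical cadherin (chr11:91124214-91133745). It had a control mean of 99.9 ± 0.0397, and 93.2, 99.8 and 99.9 with NRF2 siRNA (change -0.662, SE 0.329, limma adjusted p = 0.274). The region that passed lay between NEDD1 and TMPO, a protein of the nuclear lamina (chr12:98790486-98800464). It was at 98.7, 99.5 and 99.7 in controls and at 46.3, 76.2 and 86.5 with NRF2 siRNA, with means of 99.3 ± 0.498 and 69.7 ± 20.9 (SD, n = 3 per group). No treated value reached a control one, and it changed by -1.80 (SE 0.230, limma adjusted p = 0.00825), while the 2 other members of its interval were at 0.373 and 1.02.

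The other 8 of the 10 strongest did not pass the test, with changes from -0.698 at ST8SIA4-SLCO4C1 to 0.637 at ATP23-LRIG3. No member with a change this small was called, so these results do not show that the regions were unchanged. The ATP23-LRIG3 region (chr12:58816252-58821641), in the interval next to LRIG3, a leucine-rich repeat membrane protein, was at 97.9, 99.2 and 98.7 in controls and at 99.4, 99.9 and 99.8 with NRF2 siRNA (limma adjusted p = 0.119). A region in the interval of 2.72 Mb between GATA3, a transcription factor, and CELF2, an RNA-binding protein (chr10:8405406-8412296), was at 98.6, 98.9 and 98.9 and at 97.5, 98.9 and 99.1. Its change was -0.0324 (SE 0.190).

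The member farthest from any coding start lay 2462780 bp from ARAP2, in the interval of 4.80 Mb behind PCDH7 (chr4:33748255-33749587). All 6 libraries called it, at 14.3, 54.2 and 69.3 in controls and 32.9, 65.0 and 76.2 with NRF2 siRNA. Replicate 1 was lowest and replicate 3 highest in both groups, the groups overlapped, and the change of 0.374 (SE 0.240, limma adjusted p = 0.404) did not pass the test. The next 4 were CELF4-PIK3C3, SEL1L-FLRT2, IFTAP-LRRC4C and NUDT12-EFNA5, 1713088 to 2007209 bp from a start, with changes from -0.490 to 0.493 that did not pass the test.

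At the limits of the rule, the members nearest to 100 kb had their nearest start in TSLP (100042 bp, change 1.30) and DTNBP1 (100058 bp, 0.249). The regions just short of it were near KLF6 (99975 bp, 0.298) and HMHB1 (99877 bp, 1.46). For length, NEDD1-TMPO at 9979 bp was the longest member, and a region of 10012 bp near IGFBP3 (chr7:46548141-46558152) was the shortest left out, with a change of -0.322.

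Remote enhancers gathered in clusters. Joining members across gaps of at most 50 kb gave 1326 clusters, of which 870 held 1 member, and 456 held the remaining 1286 members. Members in clusters of 5 or more were called in all 6 libraries in 46.7% of cases, against 33.6% of single members. Their median change was 0.228, against 0.200 for single members. Changes varied within clusters: in the 39 clusters of 5 or more, the SD of the change within a cluster had a median of 0.406, against 0.457 over all their members. The SE of single changes is part of both values, so they cannot show whether members of a cluster moved together.

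The largest cluster had 13 members over 243 kb (chr7:46389700-46632332), between IGFBP3, a binding protein of insulin-like growth factors, and TNS3, a focal adhesion protein. Of its members, 10 were called in all 6 libraries. The 13 changes ran from -0.748 to 0.754, with 4 above 0 and a median of -0.0981. There were 0 calls in limma, with 1 fall and 1 rise at an unadjusted p under 0.05. The strongest of them by mean control percentile, at chr7:46458927-46467285, was at 91.8, 89.9 and 89.9 in controls and 37.1, 72.2 and 83.1 with NRF2 siRNA (change -0.748, limma adjusted p = 0.0936). The next clusters were EDN1-PHACTR1 (10 members over 214 kb, median change 0.306), beside the endothelin gene, and CTAGE1-RBBP8 (9 members over 138 kb, median -0.108).

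Clusters of 8 members were PTPRC-NR5A2, ALG10-ALG10B, NDFIP2-SPRY2, OSR1-TTC32 and MCHR2-SIM1. Their median changes were 0.488, 0.272, 0.347, 0.395 and 0.210, and 1 rise was called in PTPRC-NR5A2 and 1 in NDFIP2-SPRY2. The region of the deepest fall lay more than 50 kb beyond the OSR1-TTC32 cluster and was not part of it.

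**Figure D4:**
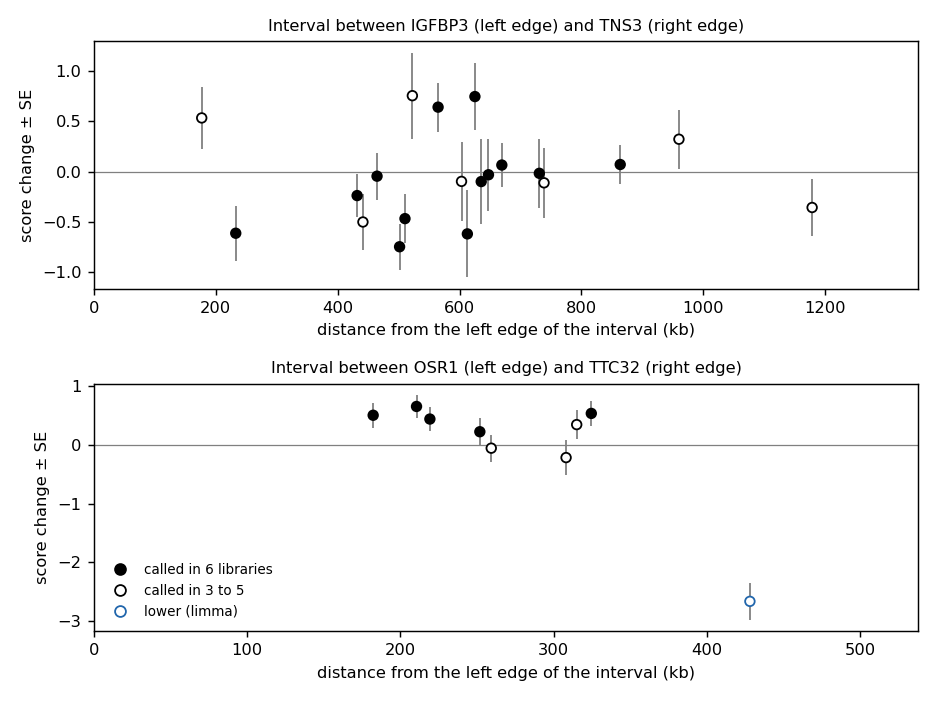
Score change with its SE (y axis) of each remote enhancer against its distance in kb from the left edge of the interval (x axis), for the intervals IGFBP3 to TNS3 (20 members) and OSR1 to TTC32 (9 members). Filled circles were called in all 6 libraries and open ones in 3 to 5, and blue marks the region called lower by limma. In the upper panel changes run from -0.748 to 0.754, and in the lower panel 1 region at -2.66 lies apart from 8 between -0.214 and 0.657.

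Gene deserts, taken as intervals of 1 Mb or more between neighbouring coding genes, numbered 314. Of these, 213 held members, 949 in all. Desert members had a median change of 0.220 with 19 falls and 30 rises (2.00% and 3.16%), and the 1203 members in shorter intervals had 0.171 with 28 falls and 41 rises (2.33% and 3.41%). Members were called in all 6 libraries in 37.3% and 40.9% of cases. The shares that fell or rose thus differed by less than 1 percentage point in and out of deserts, and the difference was not tested.

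The interval with most members was IGFBP3-TNS3, with 20 in 1.35 Mb. CDH9-CDH6, between cadherin genes, held 19 in 4.07 Mb with a median change of 0.265, and NYAP2-IRS1, next to the insulin receptor substrate gene, held 17 in 1.00 Mb with a median of 0.0251. NSUN3-EPHA6 and TGFB2-LYPLAL1 held 15 each, with medians of 0.380 and -0.0981. TGFB2-LYPLAL1 was the densest of the 5, at 20.6 members per Mb, and lies beside the gene of a transforming growth factor.

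Of the 5 widest intervals that held members, 4 were mostly unknown bases. The widest, 12.3 Mb on chromosome 16 up to SHCBP1, was 90.1% unknown bases in this build and held 2. ZNF254-UQCRFS1 on chromosome 19 (5.38 Mb, 57.6% unknown) held 1. ALG10-ALG10B on chromosome 12 (4.53 Mb, 66.3% unknown) held 8. PCDH7-ARAP2 was wide and almost fully sequenced (4.80 Mb, 0.469% unknown), and held 5.

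Motifs were searched on both strands in the central 1000 bases of the 2050 members at least that long. The response element core TGACNNNGC was present in 29 of 47 fallen members (61.7%), 26 of 72 risen members (36.1%) and 576 of 1931 others (29.8%), against 34.4% of all 27280 regions of every class searched the same way. Its form TGACTCAGC, which overlaps the AP-1 motif TGANTCA, was present in 17 of 47 fallen members (36.2%), 4 of 72 risen (5.56%) and 98 of 1931 others (5.08%), against 3.89% of all regions. Cores of other forms were present in 34.0%, 31.9% and 26.2% of the same sets, and in 31.7% of all regions. The difference between fallen and other members thus lay mainly in the form shared with AP-1.

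The same form was present in 30.1% of fallen intergenic regions nearer to a start, 33.0% of fallen regions in genes and 16.9% of fallen regions over coding starts. Read from the motif, 119 members held TGACTCAGC, of which 17 fell and 4 rose (14.3% and 3.36%), with a median change of -0.0354. The 1931 members without it had 30 falls and 68 rises (1.55% and 3.52%) and a median of 0.200. Most members with the word did not pass the test in either direction.

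The AP-1 motif was present in 66.0% of fallen, 70.8% of risen and 56.0% of other members, and in 41.4% of all regions. In nearer intergenic regions it was present in 50.8%, with 62.6% of those that fell and 73.7% of those that rose. In regions within genes it was present in 51.9%, with 67.5% and 73.4%. Over coding starts it was present in 18.1%. Members with the AP-1 motif had a median change of 0.259, against 0.0909 without. The forkhead motif TGTTTAC was present in 27.7%, 19.4% and 21.3%, and the TEAD motif CATTCC in 44.7%, 48.6% and 49.5%. The C/EBP motif TTNCGNAA was present in 2 fallen and 2 risen members (4.26% and 2.78%) and in 6.01% of the others. A match describes letters in the sequence and not binding.

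**Figure D5:**
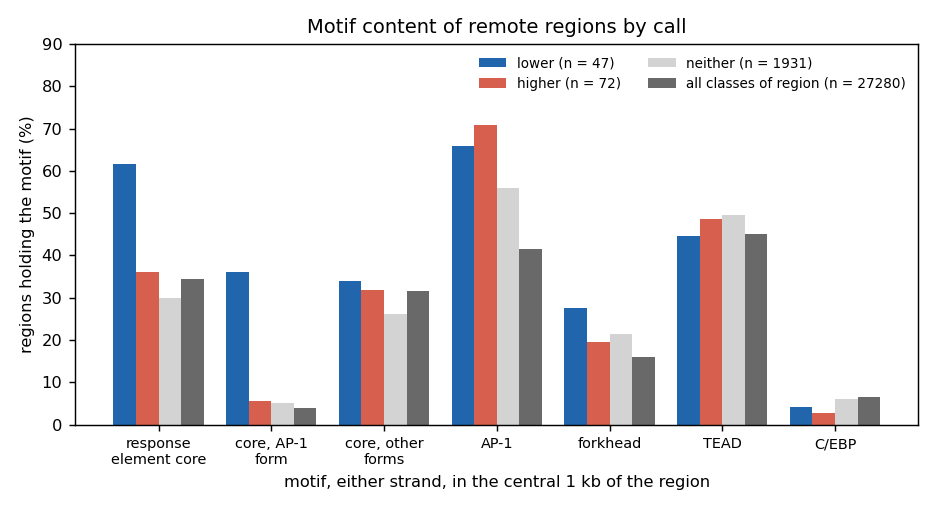
Share of remote enhancers holding each motif in the central 1 kb (percent, y axis) for 7 motif classes (x axis), in members that fell (n = 47), rose (n = 72) or did neither (n = 1931), and in regions of all classes (n = 27280). The bar of the TGACTCAGC form stands at 36.2% in fallen members and between 3.89% and 5.56% in the other sets.

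The nearest coding start of the members belonged to 916 genes in all, each 100 kb or more away by the rule. Of 33 canonical NRF2 target genes, such as NQO1, GCLM and TXNRD1, 32 were found in the annotation and 0 were the nearest start of a member. These genes were the nearest start of 9 intergenic regions within 100 kb, of which 3 fell and 0 rose in limma (4 and 1 at an unadjusted p under 0.05), with a median change of -0.401. Over all intergenic regions within 100 kb, 3.28% fell and 1.98% rose.

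The share of all coding genes that were nearest to a member is not given. Neither the canonical NRF2 list nor that of lung and foregut development can thus be set against other genes. Of 31 lung and foregut genes, 11 were the nearest start of 48 members, of which 0 fell and 1 rose in limma, with a median change of 0.220. The 1 rise is 2.08% of them, against 3.34% of all members. At an unadjusted p under 0.05 the counts were 0 and 7 (14.6%), against 138 and 399 of all members (6.40% and 18.5%). The rise was near KLF4, a zinc finger factor of epithelia, at chr9:110473575-110475292. The region was called in control replicate 3 alone, at 32.6, and at 22.2, 42.7 and 49.4 with NRF2 siRNA, so that the percentiles overlapped between groups (change 1.07, SE 0.259, limma adjusted p = 0.0471). Another KLF4 member, at chr9:110510329-110519651, was at 87.8, 85.6 and 92.8 in controls and 95.5, 92.8 and 93.2 with NRF2 siRNA (change 0.348).

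SOX9, a transcription factor of lung and cartilage, had 6 members, 144 to 707 kb from its start, with changes from -0.392 to 1.16. The one at chr17:69425789-69427087 was called in control replicate 2 alone, at 0.780, and in NRF2 siRNA replicates 2 and 3 at 51.0 and 48.3 (change 1.16, SE 0.329, limma adjusted p = 0.0750). TBX3 and KLF5 had 7 members each, with median changes of 0.315 and 0.113. SOX2 and TP63, marker factors of squamous and basal cells, had 6 members each, with medians of 0.265 and 0.00504. FOXA2, a pioneer factor of the foregut, had 3, all called in 6 libraries and within 218 kb, at changes of -0.314 to 0.149. None of the members of these 6 genes passed the test.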

How the data were processed

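H3K27ac ChIP-seq peak lists of 3 control siRNA and 3 NRF2 siRNA libraries of A549 cells were analysed. Per the labels and the submitters' processing notes, the authors trimmed reads (cutadapt 1.15), aligned them to GRCh37 (Bowtie2 2.2.6) and called broad peaks per library (MACS2 2.1.0.20151222). The deposited columns hold fold enrichment over background (a ratio), a score, and −log10 p-values and q-values. Which input served as background is not given in the sources used here. The lists held 202238 peaks, 136 of them on unplaced contigs that were left out. The lowest −log10 q was 1.01 to 1.02, so regions below that are absent from a list. The study states reads per library, fewest in replicate 1. The lists hold no reads, and lengths of 23885 to 41571 peaks limit how far down each library reaches.

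Peaks overlapping by 1 bp or more were merged. Gene positions came from GENCODE, lifted to GRCh37. Highest fold per region was ranked within each library, uncalled regions sharing the lowest rank, converted to normal scores and tested with limma 3.58.1 (R 4.3.3) over 32673 regions, at a Benjamini-Hochberg adjusted p of 0.05, without a replicate term. For a single value, 3 against 3 libraries cannot go below p = 0.1 in an exact permutation test, so none is given. Same-numbered libraries deviated together (r = 0.398, 0.199 and 0.363 over regions), so the numbers pair the libraries, and the fit with the replicate block is given beside the counts. Regions were read with Python 3.11.15 and pysam 0.24.0.

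Named regions were the 8 largest falls and 8 largest rises that moved the same way in 3 pairs, the 10 strongest, the 5 farthest, the largest clusters and intervals, those at the limits of the rule, and those nearest to listed genes. Members on chromosome 8 were counted but not named. The members, gene lists and motifs were chosen with earlier results of these data known. Alternatives were the replicate block, equal list lengths, a stricter q-value, merging across gaps, regions called in all 6 libraries, mean fold, trend and robust options, other limits, and leaving out each library.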

Additional observations from a re-analysis of the deposited data

How the results depend on the processing

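The median score change over remote enhancers stayed positive and within the spread between pairs under every alternative, from 0.157 to 0.225, and from 0.165 to 0.203 with 1 library left out. That spread is the SD of the pair medians, 0.0658, and it includes the pair 1 value that is set by ties. The number of falls was 76 with the replicate block, 31 with equal list lengths, 17 at a q-value of at most 1e-05, 18 among regions called in all 6 libraries, 86 at 50 kb or more and 24 at 200 kb or more, against 47. With 1 library left out it ranged from 0 to 58. The number of rises was 170 with the replicate block, 172 with the block and equal list lengths, 26 at the stricter q-value, 38 among regions called in all 6 libraries, 114 with trend and robust options and 44 at 200 kb or more, against 72. With 1 library left out it ranged from 0 to 104. The number of members was 1188 with equal list lengths, 872 at the stricter q-value and 1295 at 200 kb or more, against 2156. The other alternatives moved these counts by less than 1.5 times. All 119 calls were also made with the replicate block, and 8 were made without any one of the libraries other than control siRNA replicate 2. The cause of these shifts was not tested. Shares over all regions are given only for whole lists, the replicate block and regions called in all 6 libraries. The other counts describe the members only. Peak lists hold no reads, so the precision of a single percentile is unknown, and a region missing from a list lies below its threshold and is not shown to be without H3K27ac.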

Other observations

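The sequences around the cores of RAPGEF2-FSTL5, which fell, and SLC16A7-TAFA2, which rose, share 40 of 49 bases (81.6%). The word TGCTGGCTTCAGGTNTGAC, chosen after these sequences were seen, was found on either strand in 16 of 29165 regions (0.0549%). Of these, 4 were remote enhancers, 5 were intergenic nearer to a start and 7 lay in genes. By limma, 3 of the 16 fell, 1 rose and 12 did neither. The word runs into a full response element core in 11 regions and into the TGACTCAGC form in 4, of which 2 fell and 0 rose. Another remote enhancer with the word, between CBLB and CCDC54, stood at percentiles 38.9, 39.7 and 63.9 in control libraries. It was not called in NRF2 siRNA replicate 1 and stood at 0.329 and 23.0 in replicates 2 and 3 (change -0.994, limma adjusted p = 0.0340). The last, between FAM133A and DIAPH2, had a change of -0.219. These are values with no test of the word itself.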
